A study of Homo sapiens with 24 samples.

Results

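The peaks described here are those that anti-m1A immunoprecipitation gave in ALKBH3 knockout and in wild-type cells of HEK293T, a line derived from human embryonic kidney. Each genotype had 2 replicate peak lists, named KO replicates 1 and 2 and WT replicates 1 and 2. Peaks of the 4 lists that overlapped by 1 nt or more on a RefSeq transcript were merged into 7322 regions. A region was KO-only when both KO lists and neither WT list held it, WT-only in the reverse case, and shared when all 4 lists held it. This gave 1179 KO-only, 296 WT-only and 488 shared regions, which are 16.1%, 4.04% and 6.66% of the 7322. They lay on transcripts of 739, 203 and 326 genes, or 18.9%, 5.2% and 8.35% of the 3903 genes with a region in any of the 4 lists.

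The series holds 24 libraries of polyadenylated RNA from this cell line. The KO cells carry a knockout of ALKBH3 and had no treatment; no label says whether they are 1 clone. The WT cells are wild type, also untreated. Both were grown in DMEM with 10% fetal bovine serum, and each had input, immunoprecipitated and demethylase-treated libraries in 2 replicates, of which input and immunoprecipitated libraries are taken to stand behind the lists. Peak lists of other wild-type HEK293T cells were used only as an outside comparison: 2 lists named for untreated cells, 2 for cells given 50 µM hydrogen peroxide for 30 min and 2 for cells kept without serum for 16 h. No label says that replicates were separate cultures, so differences between lists may be technical.

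N1-methyladenosine (m1A) is a methyl group on the Watson-Crick face of adenosine, where it blocks base pairing and can stop reverse transcriptase. It is long known from tRNA and ribosomal RNA, and in mRNA it is described mainly in the 5′ part of transcripts, around the start codon. ALKBH3 is a dioxygenase of the AlkB family that removes the methyl group from 1-methyladenosine and 3-methylcytidine in RNA and single-stranded DNA. The comparison of knockout and wild-type cells asks, per the series' design text, which sites depend on ALKBH3.

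The following stretches show what the start of such transcripts looks like, for named genes of high pileup in each class whose region begins in the first 50 bases and which the RefSeq table holds. Each is bases 21 to 50 after the RefSeq gene start (GRCh38.p14, RefSeq promoter table), written 5′ to 3′. Capitals mark bases inside the called region, counted as though the transcript began at that gene start, which was not checked.
RPLP1, KO-only, chr15:69452838-69452867, plus strand: caaggtgctcggtccttccgaggaAGCTAA
RPLP2, KO-only, chr11:809987-810016, plus strand: ccgaggtcgcacgcgtgagacttctcCGCC
C1QBP, KO-only, chr17:5439106-5439135, minus strand: tcgcggggcgcctaggcctgggttgTCCTT
RPS28, KO-only, chr19:8321516-8321545, plus strand: CGCCGCGCCGCCATCATGGACACCAGCCGT
HNRNPA0, WT-only, chr5:137754314-137754343, minus strand: TAGGGGAGCGGAGGTGGCGGCGGCGGCGGT
PHF19, WT-only, chr9:120868862-120868891, minus strand: CGGGCCCGGAAGGTTAGACCTTGGGGCGAG
CHCHD10, shared, chr22:23767923-23767952, minus strand: caagcgctgcggcatTTGTCCCCGCGACAG
EIF1, shared, chr17:41688905-41688934, plus strand: gccgaggattcagcagcctcccCCTTGAGC
The number of adenines in these 30 bases varied from 1 in the stretch of C1QBP to 7 in that of RPLP1. In the 50 bases after the gene start, G and C made up 69.5% ± 8.48 for KO-only genes (SD over 604 genes matched of 735), 69.5% ± 10.8 for WT-only genes (169 of 203) and 71.2% ± 10.3 for shared genes (263 of 326). Genes with any region had 69.2% ± 9.69 (3211 of 3903), and the mean over all 27305 genes with a promoter entry was 59.1% ± 13.7. The 3 classes thus differed from each other by less than their spread over genes, and all lay above the mean over all entries. Adenine was the first base of 45.0%, 49.7% and 49.4% of KO-only, WT-only and shared genes, against 44.0% of genes with any region.

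The 4 lists were not equal in size or strength, and this bears on every count. KO replicates 1 and 2 held 3447 and 3524 peaks, and WT replicates 1 and 2 held 2175 and 3410. The median pileup, the number of reads stacked at a summit as the authors' files give it, was 119 and 111 in KO and 67 and 113 in WT. WT replicate 1 was thus the short list with low pileups, while WT replicate 2 resembled the KO lists. The median fold over local background, also the authors' value, was 3.71, 3.62, 3.81 and 3.78 in the same order. An exact two-sided permutation of the 4 lists gave p = 0.333 for the number of peaks (693 more in KO on average), which is the smallest p that 2 against 2 can give. ALKBH3 itself had 0 peaks in each list, so the lists do not check the knockout. None of the 20 markers of other cell types had a region.

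Sharing between lists followed the same order. Of the regions in either list, KO replicates 1 and 2 shared 51.3% and WT replicates 1 and 2 shared 21.4%. WT replicate 2 shared 26.4% and 24.7% with the KO lists, more than with its own replicate, and WT replicate 1 shared 15.1% and 13.7%. Regions in both lists of a genotype, from which the specific classes are drawn, numbered 2357 in KO and 984 in WT. Intermediate patterns were common, as the plot of regions by combination of lists shows. Regions in WT replicate 2 alone numbered 1399, more than any class, and 601 regions were in both KO lists and WT replicate 2 but not in WT replicate 1.

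**Figure D1:**
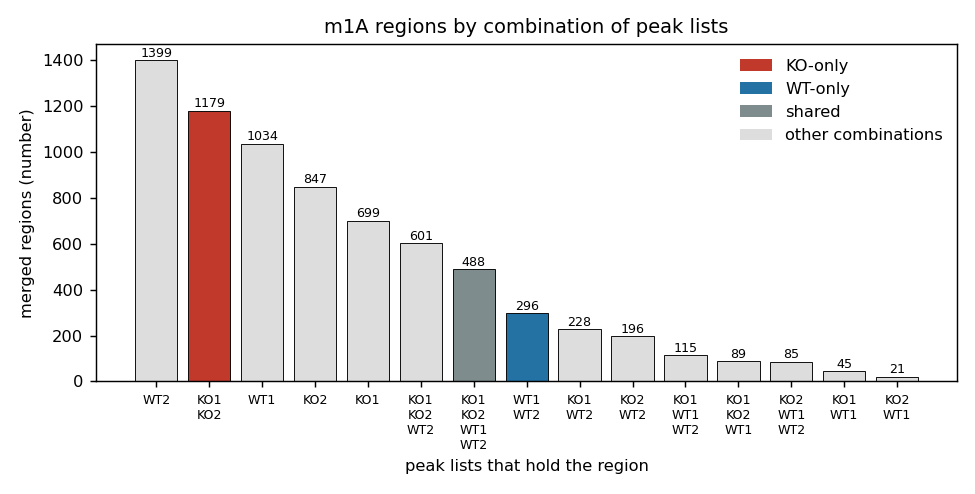
Number of merged regions (vertical axis) for each combination of the 4 peak lists that hold them (horizontal axis), with the KO-only, WT-only and shared classes coloured. KO-only regions (1179) are the second most frequent combination after regions of WT replicate 2 alone (1399), and WT-only regions (296) come eighth.

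Without WT replicate 1 the order of the classes turned, since a single WT list then sufficed: WT-only regions outnumbered KO-only ones by 430. Without WT replicate 2 KO-only regions were 444 more than WT-only ones, and without a KO list 1503 or 1632 more, against 883 with all 4 lists. A class says only that a peak was or was not called. The lists give no level of a transcript in input RNA, so more methylation per molecule and more of the transcript cannot be told apart.

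Summits of all 3 classes lay mostly close to the 5′ end of the transcript, and none lay in the first 60 nt. Over all regions only 2 of 7280 summits lay there (0.0275%), and no such region was shorter than 100 nt. The empty first 60 nt are therefore no trait of the classes. Positions could be read on the transcript for 1166 KO-only, 296 WT-only and 488 shared regions; 13 KO-only regions on transcripts with positions beyond 22000 nt were set aside. The median summit was at nt 188 for KO-only regions (quartiles 136 and 375), nt 156 for WT-only (116 and 255) and nt 151 for shared regions (124 and 211), against nt 204 over all regions (137 and 512). Shared regions were thus the most tightly placed by their quartiles.

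Summits lay within 300 nt of the start in 808 KO-only regions (69.3%, 95% Wilson interval 66.6 to 71.9), 232 WT-only regions (78.4%, 73.3 to 82.7) and 421 shared regions (86.3%, 82.9 to 89.0), against 63.3% of all regions. Isoforms repeat the same signal, so these intervals, which cover counting error only, are too narrow. With 1 region per gene the shares were 71.4% (68.0 to 74.5), 77.4% (71.3 to 82.6) and 84.0% (79.7 to 87.5). The intervals of KO-only and WT-only regions then overlapped, while that of shared regions stayed above that of KO-only regions. At the 5′ extreme, 10.8% of WT-only summits lay in the first 100 nt, against 3.09% of KO-only and 4.10% of shared ones. Over all regions it was 4.57%. With peaks of 4-fold or more alone the shares within 300 nt drew together, at 84.4%, 86.6% and 87.3%. Taken list by list, 73.1% and 72.0% of summits lay within 300 nt in KO replicates 1 and 2. WT replicates 1 and 2 had 55.8% and 74.2%, on either side of the KO values. The mean was higher in KO (72.5%) than in WT (65.0%), the reverse of the order of KO-only and WT-only regions. The lists thus do not separate the genotypes by this share, and the intervals above do not cover the spread between lists.

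**Figure D2:**
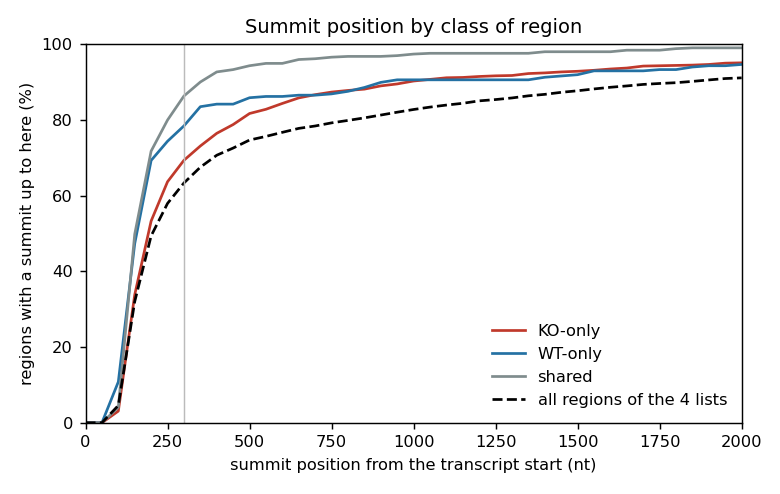
Share of regions (vertical axis, %) whose summit lies at or before a position on the transcript (horizontal axis, nt from its start, up to 2000), for the 3 classes and for all regions of the 4 lists; the grey line marks 300 nt. Shared regions rise fastest, reaching 86.3% at 300 nt, WT-only regions reach 78.4% and KO-only regions 69.3%, and all regions lie lowest at 63.3%.

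Regions deep in the transcript were more frequent in both genotype-specific classes than among shared regions. A summit beyond nt 1000 was found in 114 KO-only regions (9.78%, 8.20 to 11.6), 28 WT-only regions (9.46%, 6.63 to 13.3) and 13 shared regions (2.66%, 1.56 to 4.50). Over all regions the share was 17.3%, so the genotype-specific classes lay between shared regions and the whole. Examples in KO are ARF1, a small GTPase of Golgi traffic, with a region at nt 1507 to 1749 (NM_001024226; pileup 1202 and 1265), and USP42, a deubiquitinase, at nt 2331 to 2538. In WT, ZNF703, a transcriptional corepressor, had one at nt 1659 to 1996 (NM_025069; pileup 319 and 771). SF3B3, a subunit of the U2 snRNP, had another at nt 2906 to 3043 (NM_012426; 78 and 108). These are transcript positions only; whether they fall in a coding sequence or a UTR was not analysed here.

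Replicate lists put the summit at nearly the same place. In shared regions the median distance was 7 nt between the KO lists, 11 nt between the WT lists and 10 to 14 nt between lists of different genotype. In KO-only regions it was 10 nt, with 72.1% of summits within 20 nt, and in WT-only regions 14 nt, with 61.1%. Regions were 147 nt long in the median for KO-only, 166.5 nt for WT-only and 204.5 nt for shared regions; shared regions are unions of peaks from more lists, which alone can lengthen them.

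Within each list, genotype-specific regions had a middling pileup, below that of shared regions and above that of regions found in that list alone. In KO replicate 1 the median pileup was 144 for KO-only regions, 188.5 for shared ones and 75 for regions of that list alone. In KO replicate 2 it was 140, 173 and 71. The KO-only medians stood at percentiles 58.1 and 60.8 of their lists. In WT replicate 1 the median was 71.5 for WT-only regions, 150.5 for shared ones and 48 for the list alone, and in WT replicate 2 it was 130.5, 259.5 and 75. WT-only medians stood at percentiles 53.0 and 56.1. Shared medians stood at percentiles 67.6 and 68.5 in the KO lists and 79.2 and 80.1 in the WT lists.

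**Figure D3:**
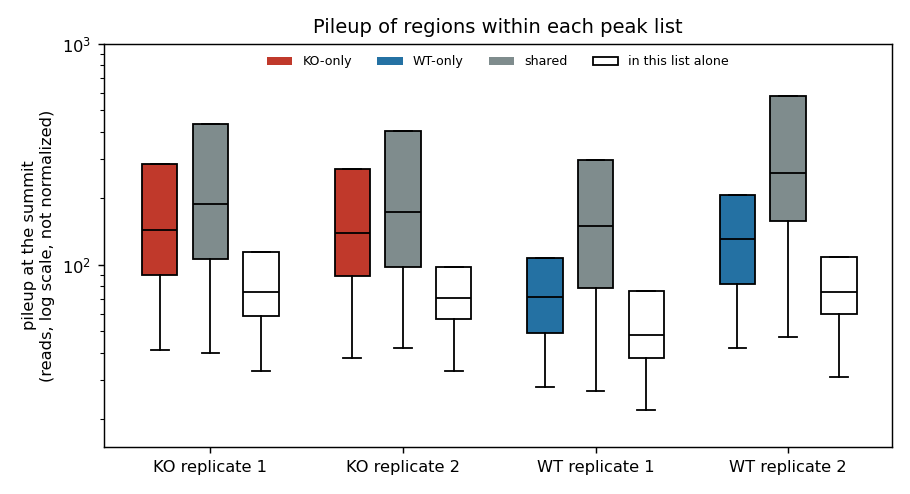
Pileup at the summit (vertical axis, reads, log scale, not normalized) of the regions of each class within each of the 4 lists. Boxes span the quartiles with the median as a line, and the lower whisker reaches the minimum; values above the upper quartile are not drawn. In every list the shared regions have the highest median (188.5, 173, 150.5 and 259.5) and the regions of that list alone the lowest (75, 71, 48 and 75).

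Fold over local background ranked the classes as pileup did in 3 of the 4 lists, and otherwise in WT replicate 1. There the median fold of WT-only regions, 4.51, was above that of shared regions, 4.32. In WT replicate 2 it was 4.65 against 5.22. KO-only regions had 3.86 and 3.83 in the 2 KO lists, close to the medians of all peaks there (3.71 and 3.62), and shared regions 4.51 and 4.35. Calls rest on pileup and fold, so these values describe the classes and support nothing about them.

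Among genes with a symbol and without any WT peak, the KO-only regions with the highest pileups lay on 12 named genes, of which 6 encode ribosomal proteins. Over all KO-only regions, which this ranking does not cover, pileups reached 26276 and 25603 in KO replicates 1 and 2. MIF, a cytokine with tautomerase activity, led with pileups of 9792 and 10287 in KO replicates 1 and 2 (NM_002415, nt 72 to 179; fold 3.73 and 3.94). Its antisense partner MIF-AS1 had 9207 and 9859 at nt 1346 to 1453 (NR_038911). No label says whether strand was used, so reads of MIF and MIF-AS1 cannot be told apart. Then came RPLP1, an acidic protein of the ribosomal stalk, with 6869 and 7368 (NM_001003, nt 45 to 162; fold 3.02 and 3.26). Its partner in the stalk, RPLP2, had 3764 and 3263 (NM_001004, nt 47 to 266; fold 6.21 and 5.69). For each of these genes the 2 KO values lay close together and neither WT list held a peak anywhere on the gene.

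TPT1, the translationally controlled tumour protein, had 4195 and 3380 (NM_001286272, nt 93 to 263) and the highest folds of this group, 10.6 and 8.59. RPS28, a protein of the small ribosomal subunit, had 3054 and 2945 (NM_001031, nt 18 to 273; fold 6.12 and 5.93). C1QBP, a mitochondrial matrix protein, had 3435 and 3180 (NM_001212, nt 46 to 246). PABPC1, the cytoplasmic poly(A)-binding protein, lay a little further in, with its summit at nt 334 and pileups of 3536 and 3075 (NM_002568). The last 4 were RPL13 (3450 and 3481), MARCKSL1, an actin-binding membrane protein (2948 and 2889), RPL8 (2697 and 2723) and RPS3 (2622 and 2263). RPS3 lay furthest in of these 4, at nt 749 to 863 (NM_001005).

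High pileup did not mean high fold. RPL13 had a fold of only 1.13 and 1.32, and MARCKSL1 1.78 and 1.81. With peaks of 4-fold or more alone, TPT1, RPLP2 and RPS28 were still KO-only and the other 9 were not; RPL13 also lost its class with lists of equal length. Ribosomal protein genes have many near-identical processed pseudogenes, and no label says how reads with several matches were counted, so their values are uncertain. Of these 12 regions 9 had a summit within 300 nt.

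WT-only regions were ranked the same way, over genes with a symbol and without any KO peak. EEF1G, a subunit of the elongation factor complex, had pileups of 3063 and 2229 in WT replicates 1 and 2 (NM_001404, nt 146 to 283; fold 8.68 and 3.58). TLE5, a Groucho-family corepressor, followed with 808 and 1483 (NM_001130, nt 85 to 201). EEF1G thus had the highest pileup in both WT lists among the genes named here.

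HNRNPA0, an RNA-binding protein of the hnRNP family, had 563 and 439 (NM_006805, nt 13 to 145; fold 10.8 and 4.89). EIF4G2, a translation initiation factor that lacks the binding site for the cap-binding protein, had 452 and 512 (NM_001042559, nt 125 to 341). WSB2, a substrate receptor of ubiquitin ligases, had 234 and 496 (NM_018639, nt 67 to 267; fold 19.3 and 27.8). Chromatin factors stood next: ASXL1, a Polycomb-associated protein, with 227 and 386 (NM_015338, nt 51 to 500; fold 7.05 and 7.04), and PHF19, which binds a histone mark for Polycomb complex 2, with 204 and 366 (NM_015651, nt 4 to 246; fold 18.9 and 20.7). AMZ2, a metalloprotease, closed the group with 205 and 191 (NM_001033574, nt 56 to 276). At 4-fold or more 6 of these 10 genes kept a WT-only region, among them HNRNPA0, WSB2, ASXL1, PHF19 and AMZ2.

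Shared regions were ranked over transcripts with a gene symbol. Ribosomal RNA and transcripts without a symbol, which hold the largest shared pileups, were left out. FTH1, the ferritin heavy chain, had pileups of 10465 and 9263 in KO and 4850 and 13506 in WT (NM_002032, nt 52 to 301). ATP6V0C, a proton channel subunit of the V-ATPase, had 5323, 4705, 4452 and 9013 in the same order (NM_001694, nt 113 to 276). ATP5F1D, a subunit of ATP synthase, had 4701, 4005, 4001 and 6753 (NM_001001975, nt 38 to 234). In each of the 3, WT replicate 2 held the highest value and WT replicate 1 the lowest, with both KO lists between them. Library depth is unknown, so these raw pileups are not compared between genotypes.

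CHCHD10, a mitochondrial protein of the cristae, had 6169, 5272, 2596 and 4581 (NM_213720, nt 36 to 229). EIF1, the factor that guards start codon choice, had 6380, 5612, 2491 and 4177 (NM_005801, nt 43 to 193). ANP32B, UBB and YBX1, a histone chaperone, a ubiquitin precursor and a cold-shock RNA-binding protein, completed the 8, with lowest pileups of 2533, 2463 and 2429. The shared region of UBB began furthest in, at nt 302 (NM_018955).

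The classes also differed in how often 6 other wild-type lists, which the classes do not use, held the same region. A peak in either of the 2 lists named for untreated cells overlapped 319 of 1166 KO-only regions (27.4%, 24.9 to 30.0), 190 of 296 WT-only regions (64.2%, 58.6 to 69.4) and 354 of 488 shared regions (72.5%, 68.4 to 76.3). Both lists held 77, 103 and 214 of them. KO-only regions were thus found in untreated wild-type cells less often than the other classes, yet 319 of them were. The rule itself took KO-only regions for absence from both WT lists, and the other classes for presence in both. A lower overlap with further wild-type lists is therefore partly built in, and the share over all regions was not computed. With 1 region per gene the shares were 28.7%, 63.5% and 72.1%.

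The order depended on 1 list. Without WT replicate 2 the share was 36.7% for KO-only, 29.5% for WT-only and 67.2% for shared regions, so WT-only regions fell below KO-only ones. Without WT replicate 1 it was 28.2%, 45.7% and 63.8%, and at 4-fold or more it was 33.9%, 73.9% and 87.3%. That these lists belong to untreated cells follows their naming; the descriptions of the untreated samples point to the starved lists.

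The other 4 lists, also of wild-type cells, gave the same order, with the same limit from the rule. In the hydrogen peroxide lists, 23.2% and 19.98% of KO-only, 39.9% and 31.4% of WT-only, and 59.0% and 52.5% of shared regions were overlapped. In the starvation lists the shares were 26.3% and 25.7%, 49.7% and 40.5%, and 64.8% and 57.6%. Any of the 6 lists held 67.9% of KO-only, 86.1% of WT-only and 94.5% of shared regions. All 6 lists held 2 KO-only regions, 25 WT-only regions and 91 shared regions. These lists are longer than the 4 compared here, with 3903 to 11362 peaks, and share cells, antibody and calling with them.

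**Figure D4:**
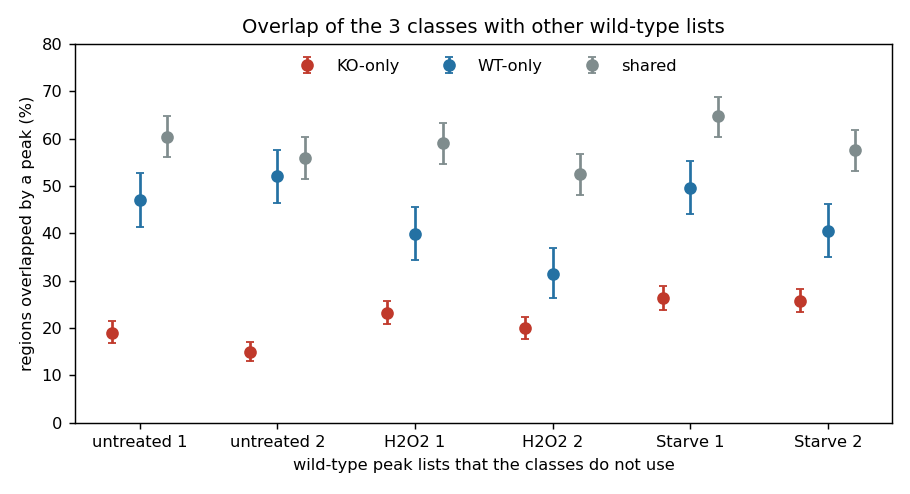
Share of KO-only, WT-only and shared regions (vertical axis, %) that overlap a peak in each of 6 other wild-type lists (horizontal axis: 2 named for untreated cells, 2 for hydrogen peroxide, 2 for starvation). Bars are 95% Wilson intervals over regions. KO-only regions are lowest in every list (14.9% to 26.3%), shared regions highest (52.5% to 64.8%), and WT-only regions lie between. This order is partly built in, since the rule chose KO-only regions for absence from WT lists and the others for presence. The share over all regions was not computed.

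KO-only regions were the less often overlapped at each level of pileup, again with the limit that the rule chose them for absence from WT lists. The KO-only and shared regions of KO replicate 1 were pooled and split by pileup into 3 ranks of near-equal size. From low to high, lists of untreated cells overlapped 31.3%, 28.8% and 21% of KO-only regions, against 77.2%, 68.5% and 73.1% of shared ones. In KO replicate 2 the shares were 29.4%, 32.2% and 19.4%, against 77.4%, 69.3% and 71.8%. In both KO lists the KO-only regions of the highest pileup were those found least often in untreated cells. WT-only and shared regions were pooled and split in the same way. For WT-only regions the share from low to high pileup in WT replicate 1 was 61.5%, 65.4% and 72.2%, against 73.8%, 74.2% and 70.8% of shared regions. In WT replicate 2 it was 59.0%, 69.7% and 71.7%, against 71.2%, 78.6% and 68.5%.

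Among named genes the pattern could be seen region by region. Of the 12 KO-only genes of highest pileup, 7 regions were in none of the 6 lists, among them MIF, RPLP1, C1QBP and PABPC1, and 1, RPLP2, was in a list of untreated cells. Of the 10 WT-only genes, 6 regions were in a list of untreated cells, and HNRNPA0, ASXL1 and PHF19 were in all 6 lists. EEF1G and TLE5, which had the highest pileups of these 10, were in none. Of the 8 shared genes 5 were in all 6 lists, while FTH1 was in none.

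Most genes with a genotype-specific region had no peak at all in the other genotype, and those that kept one kept it mostly on the same transcript. The rule took these regions for absence from both lists of the other genotype, so the lack of a peak is partly built in. The same share over all genes was not computed. Lists of different genotype shared only 13.7% to 26.4% of their regions, so a missing peak was common and these counts are a description. Of 739 genes with a KO-only region, 117 had a WT peak elsewhere: 37 in WT replicate 1 alone, 54 in WT replicate 2 alone and 26 in both. For 85 of them it lay on the same transcript, for 32 only on another, and 7 genes also had a shared region. Of 203 genes with a WT-only region, 54 kept a KO peak, with 15 and 20 in 1 list alone and 19 in both; 39 kept it on the same transcript and 8 had a shared region. The kept peak was therefore called in 1 list alone in 91 of 117 and 35 of 54 genes. EIF5, an initiation factor, RAB7A, a GTPase of late endosomes, and UBE2S, a ubiquitin-conjugating enzyme of mitosis, are examples in KO. Their KO-only pileups were 1037 and 981, 586 and 611, and 575 and 719, with a WT peak elsewhere on the gene in 1, 1 and 2 WT lists.

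The kept peak was usually some distance away. For 123 KO-only regions with a WT peak on the same transcript, the nearest one was 720 nt away in the median (quartiles 353 and 1570.5). It lay upstream for 53 and downstream for 70, and within 200 nt for 20. For 57 WT-only regions the nearest KO peak was 492 nt away (321 and 1177), upstream for 20 and downstream for 37, and within 200 nt for 10.

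In 9 genes the same transcript carried a KO-only and a WT-only region. In 6 of them the WT-only region was the upstream one, near the start, and the KO-only region lay deeper. ANKRD11, a chromatin regulator, had WT-only and KO-only summits at nt 118 and 5695 (NM_013275), and NOTCH3, a receptor of the Notch family, at nt 111 and 4413 (NM_000435). MTSS2, a membrane-bending protein, had them at nt 109 and 1923 (NM_138383), RBM15B, an adaptor of the m6A writer complex, at nt 119 and 887 (NM_013286), CAMK2N1, an inhibitor of CaM kinase II, at nt 112 and 814 (NM_018584), and PCSK1N, a proprotein convertase inhibitor, at nt 131 and 558 (NM_013271). The upstream WT-only region of ANKRD11, NOTCH3, MTSS2 and RBM15B was in both lists of untreated cells, while their KO-only regions were in none of the 6 other lists. In CAMK2N1 and PCSK1N it was the reverse: the WT-only region was in none of the 6 lists, and the KO-only region was in 3 and in 1 of them.

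The order was the reverse in CEBPA, a transcription factor of adipose and myeloid cells (KO-only summit at nt 250, WT-only at nt 859, NM_001287424), NONO, a paraspeckle protein (nt 569 and 2510, NM_007363), and OTUD1, a deubiquitinase (nt 120 and 321, NM_001145373). In CEBPA the WT-only region was in all 6 other lists and the KO-only region in none. Pileups in these genes ranged widely. PCSK1N had 708 and 732 in KO and 198 and 340 in WT, NONO 221 and 256 in KO and 453 and 475 in WT (NM_001145409), and NOTCH3 104 and 141 in KO and 33 and 75 in WT. The KO-only calls were weak: at 4-fold or more 0 of the 8 named by the rule (all but OTUD1) kept the class, and with lists of equal length 6 of the 8 lost it, namely NONO, MTSS2, NOTCH3, CEBPA, ANKRD11 and CAMK2N1. MTSS2 and CEBPA also lost it when peaks needed a −log10 q-value of at least 5. Some WT-only calls were weak too: those of NONO, RBM15B, CAMK2N1 and NOTCH3 lost their class at 4-fold or more. RBM15B and CAMK2N1 also lost it with lists of equal length, and CAMK2N1 with the q-value limit. The WT-only regions of PCSK1N, CEBPA, ANKRD11 and MTSS2 kept their class in each of these settings. With 9 genes the order is a description.

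Isoforms multiplied the counts. Among 735 genes with a KO-only region placed on a transcript, 476 (64.8%) had it on 1 transcript and 259 on more, up to 5 for APLP2, an amyloid precursor-like protein. For WT-only regions it was 143 of 203 genes (70.4%), with up to 8 transcripts for IP6K2, an inositol phosphate kinase, and for shared regions 224 of 326 (68.7%), with up to 5 for LDHA, lactate dehydrogenase A. Called by gene rather than by region, 635 genes (16.3% of the 3903) had a peak in both KO lists and in neither WT list, 194 (4.97%) the reverse, and 377 (9.66%) a peak in all 4 lists. Of the KO-only regions, 1135 lay on protein-coding genes and 21 on long non-coding RNA genes; for WT-only regions these were 287 and 3, and for shared regions 471 and 4.

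In 4 genes named by the rule, a KO-only region lay on a transcript while another transcript of the gene had a shared region. ATP5MC3, a subunit c gene of ATP synthase, had pileups of 253 and 244 in its KO-only region (NM_001002258, nt 214 to 326). Its shared region on NM_001689 (nt 71 to 227) had 799 and 688 in KO and 362 and 362 in WT. TXNDC5, a disulphide isomerase of the ER, had 114 and 125 at nt 1102 to 1227 (NM_001145549), against 297 and 384 in KO and 624 and 1328 in WT at nt 42 to 252 of NM_030810. RAB13, a GTPase of vesicle traffic, had 113 and 97 at nt 54 to 192 of NM_002870, and nearly the same KO values, 111 and 97, in the shared region at nt 51 to 245 of NR_073553, where WT had 50 and 65. For RAB13 the class thus turned on which transcript record was read. With 1 transcript per gene, taken as the one in most lists, all 4 KO-only regions lost their class. That setting kept the transcript of the shared region in each of these genes, so the loss follows from the choice. With the first accession taken instead, all 4 KO-only regions kept their class and all 4 shared regions lost theirs. At 4-fold or more all 4 KO-only and all 4 shared regions lost it. ACTN1, an actin crosslinker, had its KO-only region deep in the transcript, at nt 2881 to 3122 (NM_001102; 156 and 129), and its shared region at nt 93 to 280 (NM_001130005).

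Gene groups were described by counts alone, read against the 18.9% of all genes with a region that had a KO-only one and the 5.2% that had a WT-only one. A KO-only, WT-only or shared gene of a group is one with such a region, whether or not the gene had other peaks. Cytosolic ribosomal proteins had KO-only regions in 9 of 36 genes (25.0%), among them RPL28, RPL36 and RPL37A beside those above, and a WT-only region in 1. Mitochondrial ribosomal proteins had 8 of 35 (22.9%) and 1, MRPL24, which also had a peak elsewhere on the gene in both KO lists. MRPL20 had pileups of 329 and 260 (NM_017971, nt 47 to 178) and MRPL4 290 and 411 (NM_015956, nt 287 to 405). Translation factors went below the background in KO, with 5 of 39 (12.8%), and had 3 WT-only genes (EEF1G, EIF4E2 and EIF4G2) and 7 shared ones.

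Oxidative phosphorylation subunits had a KO-only region in 12 of 45 genes (26.7%) and a WT-only region in 0. Of the 12, 7 encode complex I subunits, among them NDUFA12, NDUFB2, NDUFB6, NDUFB7, NDUFB8 and NDUFV2. ATP5F1B, the catalytic subunit of ATP synthase, had the highest pileups, 1755 and 2349 (NM_001686, nt 125 to 270). UQCR11 of complex III had 956 and 992 (NM_006830) and COX8A of cytochrome oxidase 894 and 895 (NM_004074). Mitochondrial import and chaperone genes had 5 of 12 (41.7%) and 0, namely TOMM20, TOMM5 and TIMM22 of the import machinery, HSPD1, the matrix chaperonin, and CLPP, a matrix protease. TOMM20 had 690 and 648 (NM_014765, nt 141 to 318) and HSPD1 504 and 422 (NM_002156, nt 41 to 239).

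Genes of protein folding came next. Cytosolic and ER chaperones had KO-only regions in 10 of 32 genes (31.3%), with 0 WT-only and 0 shared ones. Called by gene, 9 were KO-only, 1 was WT-only and 1 was shared. CALR, a calcium-binding chaperone of the ER, had 1354 and 1557 (NM_004343, nt 44 to 187; fold 8.18 and 10.6). TCP1 and CCT6A, subunits of the cytosolic chaperonin, had 506 and 625 (NM_030752) and 408 and 542 (NM_001762). HSPA1B, in the same list, has a near-identical copy, so its call is uncertain. Proteasome genes had 7 of 28 (25.0%), mostly of the regulatory particle such as PSMD8 (273 and 331, NM_002812), and 1 WT-only gene, PSMC1. Ubiquitin conjugation and removal genes were near the background in KO, 7 of 36 (19.4%), and had 4 WT-only genes, among them the ligase scaffolds CUL3 (103 and 364, NM_003590) and CUL4B (165 and 152, NM_001079872).

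Splicing factors and hnRNP proteins had KO-only regions in 15 of 55 genes (27.3%) and WT-only ones in 4. SRSF2, which promotes exon inclusion, had 1657 and 1667 at nt 561 to 746 (NM_001195427), HNRNPA3 1061 and 878 at nt 97 to 275 (NM_194247) and SNRNP70 of the U1 snRNP 872 and 1011 at nt 309 to 475 (NM_003089). HNRNPU, HNRNPK, HNRNPR and U2AF1 belonged to the same class. Genes of RNA methylation and capping had 3 of 9: DNMT1 (263 and 269, NM_001379), RBM15B, and WTAP of the m6A writer complex (90 and 106, NM_001270533). The list also had 1 WT-only gene, RBM15B itself, and 2 shared ones. WTAP had a peak elsewhere on the gene in 1 WT list, and called by gene only 1 of the 9 was KO-only. DNMT1 is a DNA methyltransferase. RNA helicases had 2 of 17, DDX46 and DDX56, and 1 WT-only gene, DDX42 (106 and 76, NM_007372, nt 5 to 189).

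Membrane, lipid and cytoskeletal genes were mixed in size. Sterol synthesis had 5 of 11 (45.5%), with INSIG1, a sensor that holds back sterol synthesis, at 379 and 342 (NM_198336) and FDFT1, squalene synthase, at 109 and 102 (NM_004462), and 1 WT-only gene, EBP. Vesicle traffic genes had 19 of 79 (24.1%) and 2 WT-only genes, COPG1 and CHMP4A; VPS9D1-AS1, caught in this list by its name, is a non-coding RNA. Tubulin and actin genes had 5 of 16 (31.3%), with ACTG1 at 2211 and 2491 (NR_037688), and 0 WT-only genes. TUBB2A and TUBB2B, both KO-only, are near-identical copies and may share reads. Solute carriers, at 9 of 59 (15.3%), lay below the background.

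Nuclear genes differed among themselves. Chromatin modifiers and remodellers had KO-only regions in 5 of 47 genes (10.6%) and WT-only ones in as many, 5 (10.6%): PHF19, YY1, BRD3, KMT2A and SMARCC1. YY1, a zinc finger transcription factor with Polycomb links, had 276 and 428 at nt 138 to 509 (NM_003403; fold 10.3 and 11.7). Zinc finger and ZBTB genes had 3 of 48 (6.25%) in each class. Nuclear transport had 3 of 25 (12%) in each genotype-specific class, NUTF2 leading in KO (462 and 441, NM_005796) and NUP188 (68 and 134, NM_015354) and NUP155 (73 and 127, NM_153485) in WT. Cell cycle and replication genes had 8 of 56 (14.3%) and 2, with RRM2, a ribonucleotide reductase subunit, at 424 and 334 (NM_001034), MCM4 at 243 and 267 (NM_182746) and cyclin E1 (CCNE1) WT-only at 53 and 95 (NM_001238). CDC42EP1 is in that list by its name alone. Histones had 3 of 10 and 0, led by H3-3A at 1924 and 1634 (NM_002107, nt 34 to 179).

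Kinases and phosphatases of signalling were at the background in KO, with 12 of 64 (18.8%), and had 6 WT-only genes (9.38%), among them AKT2 and PPP3CB. PPP3CB also had a shared region. The 14-3-3 proteins YWHAQ (893 and 893, NM_006826) and YWHAG (470 and 488, NM_012479) led the KO-only group. DNA alkylation and base damage repair had 1 of 13, the alkyladenine glycosylase MPG (269 and 244, NM_001015052), and 0 WT-only genes.

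**Figure D5:**
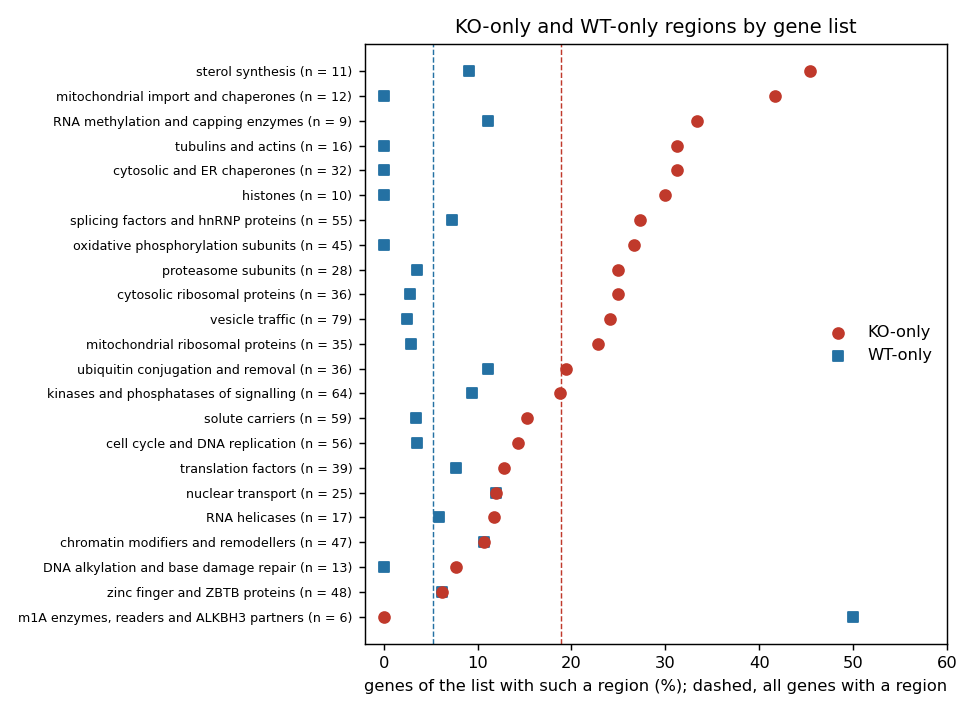
Share of the genes with a region (horizontal axis, %) that had a KO-only (circles) or a WT-only region (squares), for each gene list with 5 or more such genes (n beside its name); dashed lines mark all 3903 genes, 18.9% and 5.2%. Sterol synthesis (45.5%) and mitochondrial import and chaperones (41.7%) lie furthest to the right for KO-only regions, and 3 of the 6 genes of the m1A enzyme list had a WT-only region.

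The enzymes and readers of m1A were represented by few genes. Of 24 listed, 6 had a region, 0 of them a KO-only one and 3 a WT-only one. Called by gene, 1 of the 6 was WT-only and 1 was shared. ALKBH5, an m6A demethylase of the same family as ALKBH3, had pileups of 147 and 234 in WT at nt 744 to 874 (NM_017758; fold 3.81 and 3.45). KO replicate 1 held another peak of the same transcript at nt 379 to 594 (187). YTHDF1, a reader of methylated adenosine, had 78 and 159 at nt 46 to 302 (NM_017798; fold 2.19 and 6.50), and ASCC2, a partner of ALKBH3 in alkylation repair, 37 and 74 at nt 83 to 197 (NM_032204). ASCC2 had a KO peak on its other transcript, in KO replicate 2 alone (67, NM_001242906, nt 71 to 171). The rest were called in too few lists: ALKBH2 in WT replicate 1 alone (27), ALKBH6 in KO replicate 2 alone (76 and 79 on its 2 transcripts), and YTHDF2 in changing combinations of up to 3 lists.

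The gene lists hold few genes each, and their counts were not tested. Input levels of these transcripts were not analysed here.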

How the data were processed

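Immunoprecipitated polyadenylated RNA of 2 KO and 2 WT replicates was analysed from its 4 peak lists. Trim Galore, HISAT, MACS2 and the build hg19 are named in the submitters' processing notes, without versions or order. The lists name RefSeq transcripts in place of chromosomes, so positions are nt on a transcript. Per the file headers, pileup is the coverage signal where a peak is highest and the fold is a ratio over local background, both deposited by the authors per peak. Each peak also has a −log10 q-value and a −log10 p-value, as deposited by the authors. Another deposited coverage signal, in windows, was used to check that both genotypes' windows follow their own calls. Which input served each list, and the depth of each library, are not given in the sources used here.

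Merging and counting were done in Python 3.11.15 with pandas 2.3.3, and figures with matplotlib 3.10.9. They were checked on simulated lists with planted regions. Wilson 95% intervals and exact permutation tests came from scipy 1.17.1. Symbols came from a RefSeq table of GRCh38.p14 (6306 of 6397 transcripts matched, 98.6%), used for names only. Transcripts with positions beyond 22000 nt were left out of position counts, a limit chosen after seeing the data. The lists of untreated cells were assigned by file naming, although sample descriptions point elsewhere.

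Genes were named by rule: per class 1 region per gene, ranked by the lower pileup of the lists that hold it. This took 12 KO-only and 10 WT-only genes with no peak in the other genotype, 8 shared genes, up to 8 with both specific classes, up to 6 with a KO-only and a shared transcript, up to 3 and 2 per gene list, and every m1A enzyme with a region. OTUD1 and genes given only as members of a list or as extreme cases lie outside it, and some genes that the rule names are left out. The members and the 25 gene lists were chosen with earlier results of these data known. Alternatives were stricter overlap, fold and q-value, equal list lengths, 1 transcript per gene and each list left out.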

Additional observations from a re-analysis of the deposited data

How the results depend on the processing

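With peaks of 4-fold or more, KO-only regions fell to 566 on 359 genes and shared regions to 142 on 89 genes, the difference between KO-only and WT-only regions was 328, and the share of summits within 300 nt was 84.4% for KO-only and 86.6% for WT-only regions. Cutting each list to its strongest peaks, equal in number, gave a difference of 445. With 1 transcript per gene there were 751 KO-only and 193 WT-only regions (difference 558) when the transcript in most lists was taken, and 733, 189 and 301 KO-only, WT-only and shared regions (difference 544) when the first accession was. Leaving out 1 list gave 1269 to 2044 KO-only, 381 to 1699 WT-only and 572 to 1087 shared regions, on 800 to 1253, 258 to 1075 and 381 to 671 genes. The difference ran from −430 without WT replicate 1, where its sign turned, to 1632 without KO replicate 1; with 1 list left in a genotype a single call suffices. No summit of the 3 classes lay within 60 nt (0%, against 0.0275% of all regions). Within 150 nt lay 33.8% of KO-only, 47.3% of WT-only and 49.8% of shared summits, against 32.0% of all regions. The share in untreated lists was 33.9%, 73.9% and 87.3% for KO-only, WT-only and shared regions at 4-fold or more, and ran from 26.8% to 36.7%, 29.5% to 68.0% and 63.8% to 73.6% with 1 list left out; these alternatives were chosen after seeing the data. An overlap of 50 nt and a −log10 q-value of 5 moved no count by over 1.5 times. No paired analysis was possible because the classes come from calls and not from a test. Uncalled regions have no value, pileups are raw, library depth is unknown, and so no level can be compared between lists.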

Other observations

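The deposited windowed coverage follows the calls of its own genotype. Windows of the KO files covered 1032 and 1033 of the 1179 KO-only regions and 0 of the 296 WT-only regions. Windows of the WT files covered 225 and 226 of the WT-only regions and 1 KO-only region each. Shared regions were covered in all 4 files, 439 of 488 in each KO file and 417 and 420 in the WT files. The windowed files are therefore no separate readout of a region that the other genotype lacks.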
